A study of Mus musculus with 15 samples.

Results

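Acod1 encodes aconitate decarboxylase, the mitochondrial enzyme that turns cis-aconitate, an intermediate of the tricarboxylic acid (TCA) cycle, into itaconate. It is described here in mouse macrophages given asbestiform or non-asbestiform mineral particles. It is 1 of 10653 genes and 1 of 22795 transcripts in the deposited tables, and was chosen by its measured level, which was higher after every particle and higher with asbestos than with fragments of both minerals. Those comparisons selected it, so their values are given as a description without a test.

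The cells were MPI cells, a self-renewing macrophage line named after the Max Planck Institute, derived from C57BL6/J female fetal liver and kept in medium with the cytokine GM-CSF. They serve as a culture model of the lung's alveolar macrophages. The 5 groups of 3 libraries each were riebeckite asbestos at 9 µg/cm², riebeckite cleavage fragments at 40 µg/cm², tremolite asbestos at 5 µg/cm², tremolite cleavage fragments at 60 µg/cm², and untreated cells, all collected at 24 h. Riebeckite and tremolite are amphibole minerals. The asbestiform habit grows as thin fibres, and cleavage fragments are the elongated pieces left when a massive crystal breaks. The masses were chosen to give equal particle surface area, so they differ between habits and between minerals. The values are FPKM, fragment counts scaled to transcript length and to the mapped fragments of the library. No sequencing depth can be read from them. The labels number 3 libraries per group and do not state that each had its own culture.

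Resting macrophages hold little Acod1 RNA, and the gene is switched on by Toll-like receptor ligands through NF-kappa-B and by interferons. The itaconate it makes inhibits succinate dehydrogenase, modifies the Nrf2 inhibitor Keap1 and several other proteins in the cell, and limits the growth of some bacteria. Acod1 therefore links the TCA cycle to the inflammatory and the antioxidant state of the macrophage.

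Acod1 (ENSMUSG00000022126.6) lies on the plus strand at chr14:103046977-103056573 of GRCm38. GENCODE M21 gives it 1 transcript, Acod1-201, of 5 exons and 2623 bases. The transcript has a 5′ UTR of 91 bases, a coding sequence for 488 amino acids and a 3′ UTR of 1068 bases. Exon 1 covers 103 bases (103046977 to 103047079) and exon 5, which holds the 3′ UTR, covers 2062 bases (103054512 to 103056573). No other annotated gene overlaps it. The deposited transcript values were equal to the gene values in all 15 libraries, so the whole Acod1 level was carried by this transcript.

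The stretch that runs up to and into the gene is shown because it covers the annotated start of the only Acod1 transcript measured. RefSeq places the start at 103047012, which is 35 bases downstream of the GENCODE start. The RefSeq sequence of GRCm38.p6, plus strand, at chr14:103046762-103046989 is printed 5′ to 3′, with the only motif match in capitals.
Acod1 promoter: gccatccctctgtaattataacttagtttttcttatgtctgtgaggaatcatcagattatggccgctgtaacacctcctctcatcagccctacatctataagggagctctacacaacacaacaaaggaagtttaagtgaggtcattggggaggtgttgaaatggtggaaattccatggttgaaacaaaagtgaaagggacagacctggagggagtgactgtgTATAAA
The capitals mark a TATA box (TATAAA), which ends the printed stretch and lies at bases -28 to -23 from the RefSeq start. Its position, 103046984 to 103046989, is downstream of the GENCODE start, so it lies inside the annotated first exon of the measured transcript. The last 13 printed bases belong to that exon. Which start these cells used was not tested. A TATA box was present in 13.6% of the 32851 RefSeq mouse promoter windows of the same 300 bases, searched on both strands. The Acod1 window held no match for 7 other motifs on either strand. These were kappa-B (found in 8.46% of windows), ISRE (3.44%), GAS TTCNNNGAA (8.3%), AP-1 TGANTCA (7.81%), C/EBP TTGCNNAA (10.8%), the antioxidant response element TGACNNNGC (12.4%) and the E-box CACGTG (7.15%). An absent match says only that these letters are not in this window.

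Acod1 was lowest in untreated cells, intermediate with both kinds of fragments and with tremolite asbestos, and highest with riebeckite asbestos. It measured 19.3, 23.0 and 18.1 FPKM in the riebeckite asbestos libraries. The riebeckite fragment libraries gave 5.77, 5.90 and 5.57 FPKM. Tremolite asbestos gave 8.79, 8.82 and 8.45 FPKM. Every library of an asbestos group was above every library of the fragments of the same mineral. The tremolite fragment libraries gave 5.12, 4.97 and 4.63 FPKM. The untreated libraries gave 0.671, 0.790 and 0.669 FPKM. No library of any group fell within the range of another group, and all 15 libraries were at or above the minimum of 0.5 FPKM used to admit genes to the tests. In bulk RNA, more cells with the transcript and more transcript per cell cannot be told apart.

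**Figure D1:**
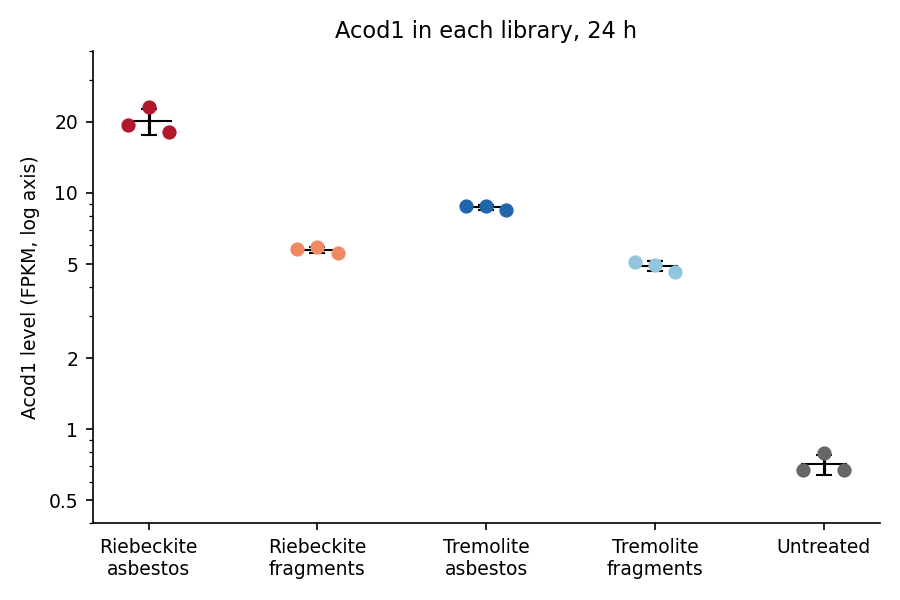
Acod1 level in FPKM on a log axis in each of the 15 libraries at 24 h, by group; points are libraries, the horizontal bar is the mean and the vertical bar the SD (n = 3). The riebeckite asbestos libraries sit between 18.1 and 23.0 FPKM, above all others, and the untreated libraries between 0.669 and 0.790 FPKM, below all others.

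The group means were 20.1 ± 2.58 FPKM with riebeckite asbestos, 5.75 ± 0.170 with riebeckite fragments, 8.69 ± 0.206 with tremolite asbestos, 4.91 ± 0.251 with tremolite fragments and 0.710 ± 0.0690 in untreated cells (SD, n = 3 each). The order of the means was therefore riebeckite asbestos, tremolite asbestos, riebeckite fragments, tremolite fragments and untreated cells. Only the neighbouring fragment groups lay close to each other. Per length, Acod1 in riebeckite asbestos libraries stood above 77.2% of the genes in the table, against 4.78% in untreated libraries. The corresponding shares were 42.0% with riebeckite fragments, 54.7% with tremolite asbestos and 36.8% with tremolite fragments.

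Against untreated cells, mean Acod1 was 28.4-fold higher with riebeckite asbestos, a difference of 3.62 on the log2(FPKM + 1) scale (SE 0.0713). This scale adds 1 to each value before the log and so understates changes of low genes. The ratio of any riebeckite asbestos library to any untreated library was between 22.9 and 34.5. Of the 10616 genes tested, 1 had a larger difference. Riebeckite fragments gave an 8.09-fold higher mean (log2 difference 1.98, with 16 genes larger). Tremolite asbestos gave a 12.2-fold higher mean (2.50, with 2 genes larger) and tremolite fragments a 6.91-fold higher mean (1.79, with 13 genes larger). These comparisons share the same untreated libraries.

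Between habits, the riebeckite asbestos mean was 3.51 times the riebeckite fragment mean, a log2 difference of 1.64 that no other tested gene exceeded. The ratio of single libraries was between 3.06 and 4.14. In tremolite, the asbestos mean was 1.77 times the fragment mean (log2 difference 0.71), with single-library ratios between 1.65 and 1.91, and 39 tested genes had a larger difference. The habit difference in riebeckite exceeded that in tremolite by 0.93 on the log2 scale, a description with no test since both habit differences chose the gene. Without riebeckite asbestos library 2, the highest of all, it exceeded it by 0.83.

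The comparisons between minerals did not choose the gene, but they use libraries of the comparisons that did. Their tests are therefore not fully independent of that choice. Between the asbestos groups, Acod1 was higher with riebeckite asbestos than with tremolite asbestos. The ratio of means was 2.32 and the log2 difference 1.12 (SE 0.0713, 95% interval 0.97 to 1.27, limma with Benjamini-Hochberg adjustment over all genes tested, adjusted p = 5.78e-07). Single-library ratios were between 2.05 and 2.73. In this comparison 15.5% of all tested genes were called higher at an adjusted p under 0.05, and 21 had a larger difference than Acod1. The doses were 9 and 5 µg/cm².

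Between the fragments of the minerals the difference in Acod1 was small. The riebeckite fragment mean was 1.17 times the tremolite fragment mean, a log2 difference of 0.19 (SE 0.0713, 95% interval 0.04 to 0.35), at doses of 40 and 60 µg/cm². All 3 riebeckite fragment libraries were above all 3 tremolite fragment libraries, but the adjusted p of 0.106 (limma) missed the threshold. The call depended on a library outside the comparison, because all groups share an estimate of the spread: without riebeckite asbestos library 2 the adjusted p was 0.0292 (limma). In this comparison 5.31% of all tested genes were called higher and 6.01% lower, and 923 had a larger difference.

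The libraries were alike in their summed FPKM, from 257329 to 273570. All 7 macrophage and all 7 alveolar macrophage markers looked for were in the table, and none of the dendritic cell, mast cell and fibroblast or epithelial markers was. The levels of the macrophage markers were not steady. With every particle some of them were higher and others lower than in untreated cells. Of 12 neutrophil markers 3 were present (S100a8, Cxcr2 and Mmp8). Their summed level was 70.1 to 72.6 FPKM with riebeckite asbestos, 72.8 to 76.0 with riebeckite fragments, 38.7 to 48.0 with tremolite asbestos, 41.8 to 45.0 with tremolite fragments and 30.8 to 35.1 in untreated cells. The 3 markers did not run alike. S100a8, a calcium-binding protein, measured 58.5, 57.4 and 54.3 FPKM with riebeckite asbestos and 52.4, 51.8 and 50.6 with riebeckite fragments. It measured 41.5, 33.2 and 31.3 FPKM with tremolite asbestos and 29.6, 26.5 and 28.3 with tremolite fragments, against 31.3, 26.5 and 25.7 in untreated cells. S100a8 was thus higher with asbestos than with fragments of both minerals without overlap, as Acod1 was. Cxcr2, a chemokine receptor, had the opposite habit order, with means of 13.5 ± 0.903 FPKM for riebeckite asbestos, 19.0 ± 2.25 for riebeckite fragments, 5.49 ± 0.807 for tremolite asbestos and 10.2 ± 1.16 for tremolite fragments, against 2.51 ± 0.0906 in untreated cells (SD, n = 3 each). Mmp8, a collagenase, also had that order, with 1.56 ± 0.335 FPKM for riebeckite asbestos, 4.01 ± 0.0980 for riebeckite fragments, 1.71 ± 0.186 for tremolite asbestos and 5.34 ± 0.183 for tremolite fragments, against 1.98 ± 0.634 in untreated cells (SD, n = 3 each). The part of these markers in the Acod1 levels was not tested. The mitochondrially encoded share of summed FPKM was 6.44 ± 0.419% with riebeckite asbestos, 7.91% with riebeckite fragments, 8.15% with tremolite asbestos, 8.42% with tremolite fragments and 8.65% in untreated cells; its part in the Acod1 levels was not tested.

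Interferon-induced genes set the riebeckite libraries numbered 2 apart from the others of their groups. The summed level of 10 such genes, chosen after the data were seen, was 93.1, 186 and 36.6 FPKM in the riebeckite asbestos libraries. It was 39.9, 141 and 31.3 FPKM in the riebeckite fragment libraries. Tremolite asbestos libraries held 188, 202 and 284 FPKM. Acod1 was highest in library 2 of both riebeckite groups, of tremolite asbestos (8.82 FPKM) and of untreated cells (0.790 FPKM). In tremolite fragments it was highest in library 1 (5.12 FPKM). In the tremolite groups and untreated cells a different library held the highest interferon sum. Tremolite fragment libraries held 96.7, 98.8 and 131 FPKM of the interferon genes, and untreated libraries 107, 93.0 and 97.8 FPKM. The part of these interferon genes in the Acod1 levels was not tested. Without both libraries numbered 2, Acod1 differed between riebeckite asbestos and untreated cells by 3.53 on the log2 scale.

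**Figure D2:**
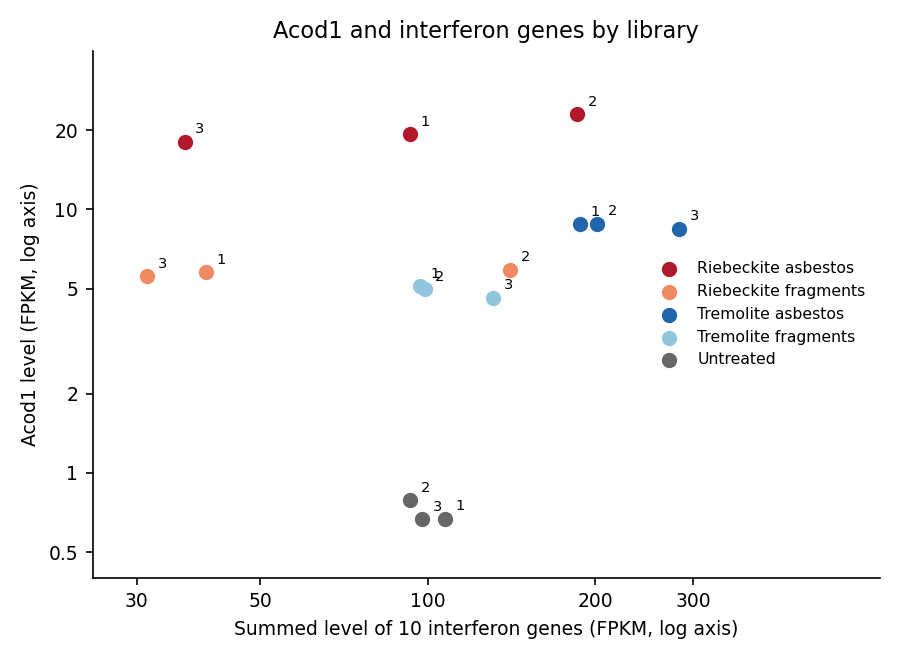
Acod1 level against the summed level of 10 interferon-induced genes, both in FPKM on log axes; each point is a library, coloured by group and labelled with its number. The interferon sum spreads from 36.6 to 186 FPKM among the riebeckite asbestos libraries, and their Acod1 level lies between 18.1 and 23.0 FPKM.

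The genes around the supply of cis-aconitate and the disposal of itaconate changed less than Acod1. Acod1 was chosen for its rise, so this order follows largely from that choice. Of 18 genes listed around this route 16 were measured. With riebeckite asbestos 4 were called higher and 3 lower than in untreated cells, where 45.3% of all tested genes were called (21% higher and 24.3% lower); the median log2 difference of the list was -0.04, against -0.02 for all genes. With riebeckite fragments 3 were higher and 4 lower (38.4% of all genes called, 15.3% higher and 23.1% lower). With tremolite asbestos 3 were lower and none higher in the limma fit (23.9% called, 10% higher and 13.9% lower), and with tremolite fragments 4 were lower and none higher (27.5% called, 12.5% higher and 15% lower). At an unadjusted p under 0.05, 1 was higher with tremolite asbestos and 0 with tremolite fragments. The tremolite counts were unsteady. The count with tremolite asbestos was 1 without untreated library 2 or without tremolite asbestos library 2. The count with tremolite fragments was 2 without untreated library 2 or tremolite fragments library 3, and 1 without untreated library 3 or tremolite fragments library 2.

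Cs, citrate synthase, measured 48.5, 45.1 and 46.5 FPKM with riebeckite asbestos, against 48.6, 47.2 and 45.8 FPKM in untreated cells. These values overlap. Cs differed from untreated cells by -0.02 with riebeckite asbestos and was not called. Aco1, the cytosolic aconitase and iron-regulatory protein, fell with all 4 particles, by 0.19 with riebeckite asbestos, 0.23 with riebeckite fragments, 0.19 with tremolite asbestos and 0.20 with tremolite fragments. The level of Acod1 per unit of Cs was 0.433 ± 0.0681 with riebeckite asbestos, 0.122 ± 0.00896 with riebeckite fragments, 0.202 ± 0.00437 with tremolite asbestos, 0.112 ± 0.00584 with tremolite fragments and 0.0150 ± 0.00150 in untreated cells (SD, n = 3 each). Even at its highest, the Acod1 transcript stayed below that of Cs.

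The transporters Slc25a1 and Abcg2 were called against untreated cells with riebeckite particles, and the transporter Slc25a10 with riebeckite asbestos. With tremolite asbestos Abcg2 differed by 0.12 and was called only under some alternatives (TMM or quantile scaling, a pseudocount of 0.1, a stricter filter, and without riebeckite asbestos library 1 or 2). Slc25a1, the mitochondrial citrate carrier, rose by 0.36 with riebeckite asbestos and 0.23 with riebeckite fragments. Slc25a10, the dicarboxylate carrier, measured 7.81, 6.71 and 6.64 FPKM with riebeckite asbestos, against 4.65, 5.11 and 5.14 FPKM in untreated cells. That was a rise of 0.43. The riebeckite fragment libraries gave 5.72, 4.60 and 5.63 FPKM of Slc25a10, which overlapped the untreated range. Abcg2, a plasma membrane exporter reported to carry itaconate, measured 11.4, 12.4 and 11.7 FPKM with riebeckite asbestos and 12.6, 12.6 and 12.3 FPKM with riebeckite fragments, against 7.01, 7.60 and 7.60 FPKM in untreated cells. Its rises were 0.61 and 0.69, so it did not follow the habit order of Acod1. Clybl, which splits citramalyl-CoA in itaconate breakdown, fell by 0.35 with riebeckite asbestos. Suclg2, a subunit of succinyl-CoA synthetase, was 11.0 and 10.9 FPKM in the riebeckite asbestos and fragment libraries numbered 2 and at least 16.0 FPKM in every other library, and was not called.

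Between riebeckite asbestos and riebeckite fragments 1 of the 16 route genes was called, Slc25a10 (higher by 0.35, with 4 higher and 1 lower at an unadjusted p under 0.05), where 10.6% of all tested genes were called, 6.71% higher and 3.85% lower. It was lost without riebeckite asbestos library 1, without riebeckite fragments library 2, and without both libraries numbered 2 (adjusted p = 0.0742, limma). The count of higher genes was 2 without riebeckite asbestos library 3, and 1 gene was lower without riebeckite asbestos library 1. Between tremolite asbestos and tremolite fragments none of the 16 was called (limma, 0.942% of all tested genes called, 0.386% higher and 0.556% lower), and 1 was lower at an unadjusted p under 0.05. Between riebeckite asbestos and tremolite asbestos 5 were called higher and none lower (limma, 26.5% of all tested genes called, 15.5% higher and 11% lower). Those called included Slc25a1, Slc25a10, Abcg2 and Mmab, which adenosylates the cobalamin cofactor. At an unadjusted p under 0.05 (limma), 6 were higher and none lower.

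**Figure D3:**
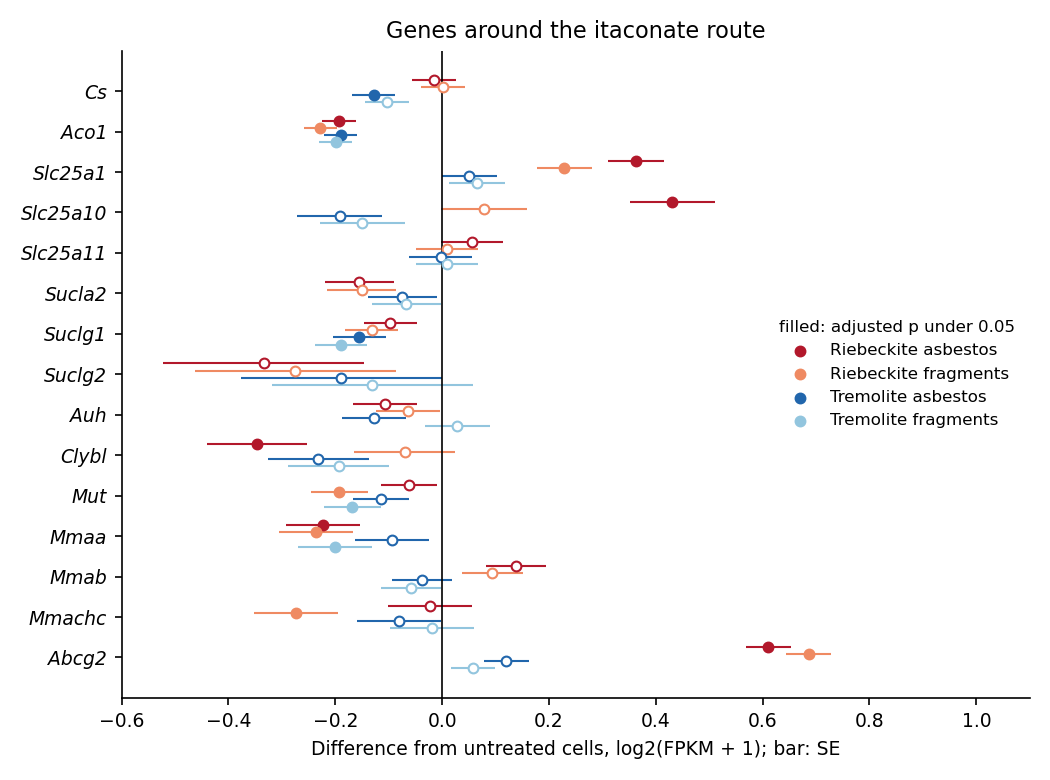
Log2(FPKM + 1) difference from untreated cells for measured genes around the itaconate route, with its SE, for each of the 4 particles; filled points passed an adjusted p of 0.05 (limma). All differences lie between -0.35 and 0.69, while those of Acod1 itself, chosen for its rise and not drawn, lie between 1.79 and 3.62.

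In the rest of the TCA cycle and the entry of pyruvate, genes moved in both directions. Of 25 listed and measured genes, 6 were higher and 10 lower with riebeckite asbestos than in untreated cells, and 4 were higher and 8 lower with riebeckite fragments. Of all tested genes 21% were higher and 24.3% lower with riebeckite asbestos, and 15.3% higher and 23.1% lower with riebeckite fragments. With tremolite asbestos 6 were lower and 1, Pcx, was higher, and with tremolite fragments 7 were lower and 1, Pcx, was higher (of all tested genes, 13.9% and 15% were lower and 10% and 12.5% higher). The count of higher genes with tremolite fragments was 3 without riebeckite asbestos library 1 and 2 without riebeckite fragments library 1. The median log2 differences of the list were 0.01, -0.02, -0.004 and -0.08 in that order. Pcx, pyruvate carboxylase, which refills the cycle, measured 13.3, 11.7 and 13.0 FPKM with riebeckite asbestos, against 6.76, 5.72 and 6.21 FPKM in untreated cells. It rose by 0.92 with riebeckite asbestos, 0.72 with riebeckite fragments, 0.26 with tremolite asbestos and 0.32 with tremolite fragments; the call with tremolite asbestos was lost without untreated library 2.

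Acly, which splits cytosolic citrate for fatty acid synthesis, fell with all 4 particles, by 0.60 with riebeckite asbestos, 0.58 with riebeckite fragments, 0.40 with tremolite asbestos and 0.58 with tremolite fragments. Pdha1, a subunit of pyruvate dehydrogenase, fell by 0.40, 0.39, 0.30 and 0.30 in the same order, and Fh1, fumarase, by 0.27, 0.29, 0.18 and 0.24. Sdhb, a subunit of the succinate dehydrogenase that itaconate inhibits, rose by 0.16 with riebeckite asbestos and was not called with the other particles. Between riebeckite habits 1 gene of this list was called, Idh3a, where 10.6% of all tested genes were called, 6.71% higher and 3.85% lower. Idh3a, a subunit of the NAD-dependent isocitrate dehydrogenase, measured 11.5, 12.6 and 12.3 FPKM with asbestos, against 10.1, 10.1 and 9.99 FPKM with fragments. Idh3a was below the untreated level (13.8, 14.3 and 14.9 FPKM) in both, and its habit call was lost without both riebeckite libraries numbered 2. Between tremolite habits none of the 25 was called (limma), where 0.942% of all tested genes were called. At an unadjusted p under 0.05, 1 was higher, and 1 was called higher without tremolite asbestos library 2.

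Among 16 genes whose protein products itaconate is reported to modify or act on, 7 were higher and 7 lower with riebeckite asbestos, and 5 were higher and 6 lower with riebeckite fragments, where 45.3% of all tested genes were called with the asbestos and 38.4% with the fragments. Without riebeckite asbestos library 1 the first count of lower genes was 4. The median log2 differences of the list were 0.11 with riebeckite asbestos, -0.05 with riebeckite fragments, 0.05 with tremolite asbestos and 0.07 with tremolite fragments. With tremolite asbestos 5 were higher, and with tremolite fragments 6, where 10% and 12.5% of all tested genes were higher. In each tremolite comparison 1 was lower, in both cases Gsdmd, whose fall with tremolite asbestos was lost without untreated library 1, untreated library 2 or tremolite asbestos library 3. Without riebeckite fragments library 3, 2 genes were lower with tremolite asbestos. Gsdmd, the pore-forming protein of pyroptosis, fell by 0.43 with riebeckite asbestos, 0.49 with riebeckite fragments, 0.23 with tremolite asbestos and 0.31 with tremolite fragments. Lrrk2, a kinase that phosphorylates Rab proteins, averaged 12.1 ± 0.181 FPKM with riebeckite asbestos, against 4.65 ± 0.376 FPKM in untreated cells (SD, n = 3 each), a rise of 1.22.

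Ldha, lactate dehydrogenase A, rose by 0.42 with riebeckite asbestos and by 0.32 with tremolite asbestos. Atf3, a stress-induced transcription factor, rose by 0.31 with riebeckite asbestos, 0.55 with tremolite asbestos and 0.29 with tremolite fragments. Between riebeckite habits 4 of the 16 were called higher with asbestos and none lower (limma), where 6.71% of all tested genes were higher and 3.85% lower. At an unadjusted p under 0.05 (limma), 5 were higher and none lower. Those called were Ldha by 0.27, Lrrk2 by 0.31, Nfkbiz, which encodes the atypical NF-kappa-B regulator I-kappa-B-zeta, by 0.28, and Atf3 by 0.26. Without both riebeckite libraries numbered 2 the count of called genes was 2, and Atf3 lost its call without riebeckite asbestos library 2. Between tremolite habits none was called (limma), where 0.386% of all tested genes were higher and 0.556% lower. At an unadjusted p under 0.05, 2 were higher and 2 lower, and 1 was called higher without riebeckite fragments library 3. The tremolite habit differences were 0.09 for Ldha, -0.14 for Lrrk2, -0.14 for Nfkbiz and 0.26 for Atf3. For Atf3 the habit difference was thus alike in both minerals, although it was called in riebeckite alone.

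Between 8 and 17 measured genes driven by Nrf2, the antioxidant transcription factor that itaconate can release from Keap1, rose with each particle, and none was called higher with tremolite asbestos than with tremolite fragments. Of 24 listed targets 21 were measured. With riebeckite asbestos 12 were higher and 1 lower, and with riebeckite fragments 17 were higher and 1 lower. With tremolite asbestos 8 were higher and 2 lower, and with tremolite fragments 9 were higher and 1 lower. Of all tested genes 21% were higher with riebeckite asbestos, 15.3% with riebeckite fragments, 10% with tremolite asbestos and 12.5% with tremolite fragments. The median log2 differences of the list were 0.42, 0.49, 0.15 and 0.27 in that order, against -0.02, -0.04, -0.03 and -0.02 for all tested genes. The gene that was lower with every particle was Gsr, glutathione reductase, and Tkt, transketolase, was the other lower gene with tremolite asbestos, a count that was 1 without untreated library 1 or tremolite asbestos library 1.

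Hmox1, the haem-degrading enzyme, measured 212, 195 and 201 FPKM with riebeckite asbestos and 190, 176 and 181 FPKM with riebeckite fragments. It measured 139, 134 and 124 FPKM with tremolite asbestos and 181, 179 and 168 FPKM with tremolite fragments, against 88.6, 84.2 and 82.0 FPKM in untreated cells. Its tremolite asbestos level was below the tremolite fragment level in every library, by a called log2 difference of -0.41, the opposite order to that of Acod1. Slc7a11, the cystine importer, rose by 0.79 with riebeckite asbestos, 0.55 with riebeckite fragments, 0.41 with tremolite asbestos and 0.59 with tremolite fragments. Between tremolite habits 2 of the 21 were called lower with asbestos, Hmox1 and Cat, catalase (-0.18), and none higher (limma); 8 were lower and 0 higher at an unadjusted p under 0.05. Of all tested genes 0.386% were higher and 0.556% lower between tremolite habits, and 6.71% higher and 3.85% lower between riebeckite habits. Between riebeckite habits Sqstm1 (0.36) and Slc7a11 (0.24) were higher, and Gsr (-0.13) and Cat (-0.12) lower. Of these, Slc7a11, Gsr and Cat lost their calls without both riebeckite libraries numbered 2; Slc7a11 did so also without riebeckite asbestos library 1 or riebeckite fragments library 1 or 2, Gsr without riebeckite fragments library 1 or 2, and Cat without riebeckite asbestos library 2 or 3 or riebeckite fragments library 1 or 3.

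The list of receptors and regulators of the pathways that switch Acod1 on also held inhibitors, among them Nfkbia. Of its 34 measured genes 12 were higher with asbestos than with fragments of riebeckite. None was lower (limma, also at an unadjusted p under 0.05). Of all tested genes 6.71% were higher. The median difference of the list was 0.17, against 0.02 for all tested genes. Without both libraries numbered 2 the count was 7. Between tremolite habits none was called (limma), with 5 higher at an unadjusted p under 0.05, where 0.942% of all tested genes were called. Against untreated cells 15 were higher and 6 lower with riebeckite asbestos, 11 and 5 with riebeckite fragments, 14 and 2 with tremolite asbestos, and 13 and 5 with tremolite fragments. The shares of all tested genes called in either direction were 45.3%, 38.4%, 23.9% and 27.5% in that order. The median log2 differences were 0.15, -0.03, 0.07 and 0.11. The counts of lower genes with tremolite were unsteady: that of tremolite asbestos was 1 without untreated library 2 or 3 or tremolite asbestos library 2 or 3 and 4 without riebeckite asbestos library 3, and that of tremolite fragments was 3 without untreated library 1 or 3, riebeckite fragments library 2, or tremolite fragments library 1 or 3.

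Tlr2, a receptor for bacterial lipoproteins, measured 126, 113 and 107 FPKM with riebeckite asbestos and 67.4, 62.4 and 63.1 FPKM with riebeckite fragments. It measured 93.1, 92.6 and 94.8 FPKM with tremolite asbestos and 88.0, 90.4 and 91.2 FPKM with tremolite fragments, against 58.7, 64.5 and 68.0 FPKM in untreated cells. Tlr2 with riebeckite fragments overlapped the untreated range, with a difference of 0.01, while Acod1 in the same libraries was about as high as with tremolite fragments. Cd14, the co-receptor for endotoxin, rose by 1.26 with riebeckite asbestos, 0.67 with riebeckite fragments, 0.54 with tremolite asbestos and 0.60 with tremolite fragments. Nfkb2, a subunit of NF-kappa-B, rose by 0.80, 0.36, 0.52 and 0.53 in that order, and Ifngr2, a chain of the interferon-gamma receptor, by 0.71, 0.48, 0.51 and 0.43. Nfkbia, the inhibitor I-kappa-B-alpha and itself a target of NF-kappa-B, rose by 1.01, 0.33, 0.68 and 0.76; its call with riebeckite fragments was lost without untreated library 1 or 2 or riebeckite fragments library 1.

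Genes of macrophage activation that often accompany Acod1 were also mostly higher. Of 36 listed genes 27 were measured, and Il6, Il12b, Nos2 and Ptgs2 were among those not in the table. With riebeckite asbestos 18 were higher and 4 lower than in untreated cells, and with riebeckite fragments 15 were higher and 6 lower. Of all tested genes 21% were higher and 24.3% lower with riebeckite asbestos, and 15.3% and 23.1% with riebeckite fragments. With tremolite asbestos 18 and with tremolite fragments 19 were higher, with none lower in the limma fit (at an unadjusted p under 0.05, 1 and 3 were lower), where 10% and 12.5% of all tested genes were higher. The median log2 differences were 0.73 with riebeckite asbestos, 0.32 with riebeckite fragments, 0.50 with tremolite asbestos and 0.47 with tremolite fragments. The count of lower genes with riebeckite asbestos was 2 without untreated library 1 or 2, and 1 gene was lower with tremolite asbestos without untreated library 3 and with tremolite fragments without untreated library 1 or 3, riebeckite fragments library 2 or tremolite fragments library 3.

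Cfb, complement factor B, measured 131, 131 and 107 FPKM with riebeckite asbestos and 70.2, 82.2 and 72.0 FPKM with riebeckite fragments. It measured 62.7, 73.3 and 71.2 FPKM with tremolite asbestos and 56.0, 57.3 and 56.7 FPKM with tremolite fragments, against 9.67, 11.3 and 11.3 FPKM in untreated cells. Cfb thus had the same order at the top and bottom as Acod1, with rises of 3.40, 2.69, 2.58 and 2.30. Gpr84, a receptor for medium-chain fatty acids, measured 12.7, 13.3 and 11.1 FPKM with riebeckite asbestos and 6.83, 6.47 and 6.47 FPKM with riebeckite fragments. It measured 4.79, 5.55 and 4.22 FPKM with tremolite asbestos and 5.62, 6.16 and 5.13 FPKM with tremolite fragments, against 1.34, 1.39 and 1.37 FPKM in untreated cells. Its tremolite groups overlapped, where those of Acod1 did not.

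Il1a, the alarm cytokine interleukin-1 alpha, rose by 1.07 with riebeckite asbestos, 0.76 with riebeckite fragments, 0.74 with tremolite asbestos and 0.75 with tremolite fragments. Ass1, argininosuccinate synthase, rose by 1.64, 1.47, 1.25 and 1.28 in that order, and Sod2, mitochondrial superoxide dismutase, by 0.73, 0.32, 0.49 and 0.43. Between riebeckite habits 16 of the 27 were higher with asbestos and none lower in the limma fit, with a median difference of 0.37, where 6.71% of all tested genes were higher. At an unadjusted p under 0.05, 2 were lower, and 1 was called lower without riebeckite asbestos library 1. Gpr84 was higher by 0.81, Cfb by 0.71, Ccl3, a chemokine, by 0.51 and Sod2 by 0.42. Between tremolite habits 1 of the 27 was called, Clec4e, a C-type lectin receptor (higher by 0.54), singled out after its values were seen. Of all tested genes 0.386% were higher and 0.556% lower between tremolite habits. Clec4e lost that call without tremolite asbestos library 1 or 3 or any tremolite fragments library.

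**Figure D4:**
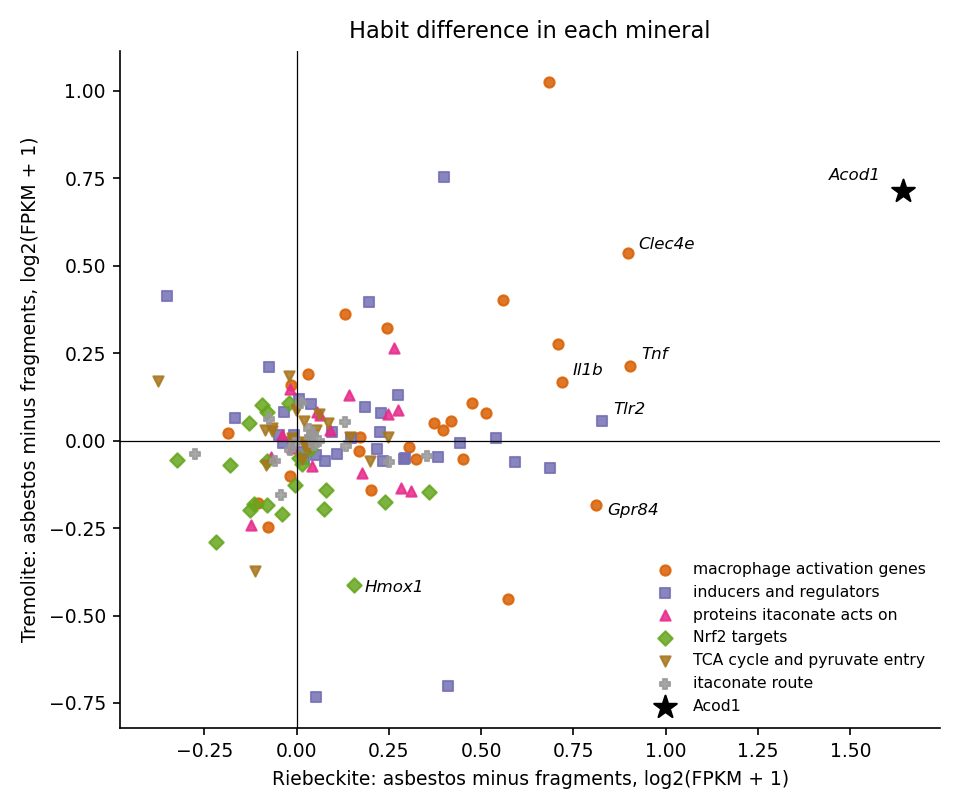
Log2(FPKM + 1) difference between asbestos and fragments in riebeckite (horizontal) and in tremolite (vertical) for the 139 measured genes of the 6 lists (one marker style per list) and for Acod1 (star). Acod1, chosen for its habit difference, lies at 1.64 and 0.71, farther right than all of the listed genes. Most of those genes lie near 0 on the tremolite axis.

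Over all 6 lists, 38 of 139 measured genes were called between riebeckite habits (36 higher and 2 lower), where 10.6% of all tested genes were called. Between tremolite habits 3 of 139 were called, where 0.942% of all tested genes were: Clec4e, Hmox1 and Cat. Of 50 genes named from the lists or as neighbours on the chromosome, 14 were called in the riebeckite habit difference minus the tremolite habit difference, 13 higher and 1 lower (limma), where 3.93% of all tested genes were called, 2.65% higher and 1.28% lower. Some of these genes were named for a small p in the riebeckite habit comparison, so their count is not independent of it.

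The genes whose pattern over the 15 libraries was most like that of Acod1 were ranked by Pearson correlation of log2(FPKM + 1) among 10254 genes with regular symbols. The first 10 were Lrpap1 (r = 0.980), Gch1 (0.980), Syk (0.979), H2-M2 (0.978), Ifngr2 (0.974), Il1b (0.973), Slc15a3 (0.971), Zc3h12c (0.967), Sema4d (0.967) and Hk2 (0.964). Libraries of a group share their treatment, so these values describe mostly the order of 5 group means. In all, 21 genes had r above 0.95 and 143 above 0.9. The ranking depended on the measure, since 3 of the first 10 were shared with a ranking by Spearman correlation and 4 with a ranking over the 12 treated libraries alone. In that last ranking H2-M2 (0.962), Uap1l1 (0.958), Gch1 (0.945), Lrpap1 (0.945) and Polg (0.943) came first.

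H2-M2, a class I MHC gene of the non-classical kind, had the widest range of group means among the first 10. That range was 4.78 on the log2 scale, wider than the 3.62 of Acod1. H2-M2 measured 47.8, 50.8 and 43.6 FPKM with riebeckite asbestos and 17.0, 16.8 and 19.1 FPKM with riebeckite fragments. It measured 24.2, 29.9 and 25.8 FPKM with tremolite asbestos and 12.5, 10.9 and 11.3 FPKM with tremolite fragments, against 0.778, 0.700 and 0.789 FPKM in untreated cells. The 5 groups stood in the same order as for Acod1, without overlap. Its habit differences were 1.38 in riebeckite and 1.13 in tremolite.

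Lrpap1, a chaperone of LDL-receptor family proteins, had the same group order over a narrower range. It measured 238, 248 and 237 FPKM with riebeckite asbestos and 200, 204 and 196 FPKM with riebeckite fragments. It measured 208, 207 and 198 FPKM with tremolite asbestos and 181, 176 and 172 FPKM with tremolite fragments, against 146, 143 and 141 FPKM in untreated cells. The asbestos and fragment libraries of tremolite did not overlap. The differences from untreated cells were 0.74, 0.48, 0.51 and 0.29.

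Il1b, which encodes interleukin-1 beta, measured 46.5, 39.3 and 40.8 FPKM with riebeckite asbestos and 26.0, 24.8 and 24.8 FPKM with riebeckite fragments. It measured 23.8, 27.0 and 25.3 FPKM with tremolite asbestos and 21.0, 21.8 and 24.7 FPKM with tremolite fragments, against 9.37, 11.1 and 12.1 FPKM in untreated cells. Il1b with both tremolite particles and with riebeckite fragments lay at about the same level, where Acod1 separated tremolite asbestos from both fragment groups. Gch1, the first enzyme of tetrahydrobiopterin synthesis, had a habit difference of 0.48 in riebeckite and 0.11 in tremolite. Syk, the kinase of many activating receptors, had 0.31 and 0.03, and Hk2, a hexokinase, 0.40 and 0.03. Among the 10, the tremolite habit difference was 0.17 for Il1b and at most 0.11 for the rest, apart from H2-M2 (1.13) and Lrpap1 (0.21).

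**Figure D5:**
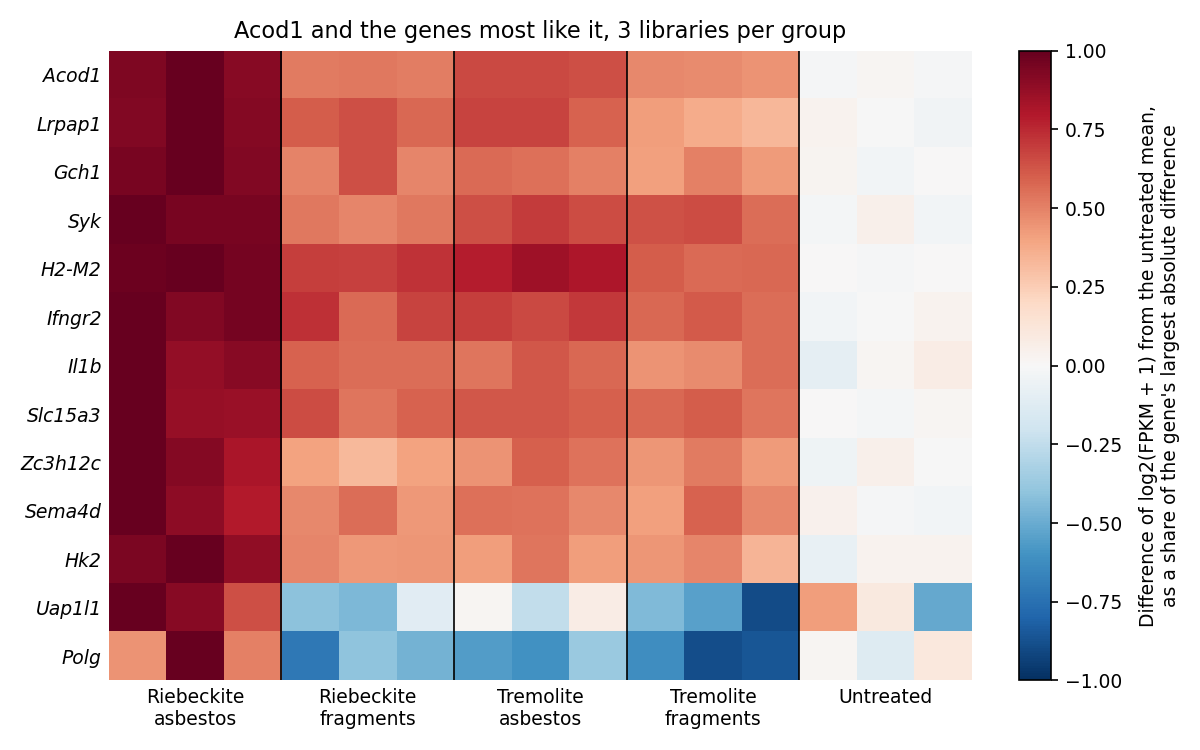
Difference of log2(FPKM + 1) from the untreated mean, divided by the largest absolute difference of each gene, for Acod1, the 10 genes most like it over 15 libraries and the further genes (Uap1l1 and Polg) most like it over the 12 treated libraries; columns are libraries 1 to 3 of each group. Uap1l1 and Polg follow Acod1 among treated libraries but not against untreated ones, where r over 15 libraries was 0.47 and 0.31.

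Mycbp2, Scel and Kctd12 lie within 1 Mb of the start of Acod1. With each particle they differed less from untreated cells than Acod1, which was chosen for its rise. Distances run from the start of Acod1 to the lower coordinate of each gene. Mycbp2, a ubiquitin ligase on the opposite strand at 66.4 kb, fell by 0.65 with riebeckite asbestos, 0.51 with riebeckite fragments, 0.40 with tremolite asbestos and 0.42 with tremolite fragments. Scel, sciellin, at 466 kb, fell by 0.90 with riebeckite asbestos, 0.72 with riebeckite fragments, 0.28 with tremolite asbestos and 0.39 with tremolite fragments. Kctd12, 70.4 kb upstream, was not called in any comparison. Its deposited values included 0 in tremolite fragments library 1, against 25.5 and 25.9 FPKM in the others of that group, and 8.24 FPKM in untreated library 3, against 39.3 and 40.0 FPKM in the other untreated libraries. Mycbp2, Scel and Kctd12 were not called between asbestos and fragments of either mineral (limma), although Mycbp2 and Scel were called lower between riebeckite habits after TMM rescaling of the libraries (adjusted p = 0.0236 for Mycbp2 and 0.0459 for Scel, limma).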

How the data were processed

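RNA was enriched for poly(A) and sequenced, per the labels' protocols. The submitters' processing notes name cutadapt, HISAT2, StringTie and GRCm38, without versions or roles. FPKM per gene and per transcript were deposited by the authors. The unit follows from the deposited files and the depth is unknown, so FPKM, not counts, was tested. The lowest of the genes' highest group means was 0.500, so the deposited table lacks genes below that.

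From there, log2(FPKM + 1) of the 10616 genes with at least 0.5 FPKM in at least 3 libraries was fitted by group over all 15 libraries with limma 3.58.1 (R 4.3.3, eBayes with trend). Benjamini-Hochberg adjustment ran over all genes tested, and a call is an adjusted p under 0.05. The fit was tested on simulated data. Intervals are 95%. Acod1 and the gene lists were chosen with earlier results of these data known, so no list count is independent support. Named genes were the 10 most like Acod1 over 15 libraries and the 5 over treated libraries, genes within 1 Mb, all route genes, and up to 4 of each other list with the smallest p in each of riebeckite asbestos against fragments and against untreated cells; others are named where a count is small or a test turned on them. The difference of the habit effects was tested for these genes after the data were seen. Alternatives were TMM or quantile scaling, pseudocount 0.1, other filters, a replicate block, only the groups compared, no trend, summed transcripts and leaving out each library. Acod1 has 1 transcript, so a planned test of transcript shares could not be run. P-values measure the spread between libraries, which may be technical. The library numbers do not show whether same-numbered libraries were paired, and the main fit did not pair them. Some genes of these lists are counted but not reported here by name.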

Additional observations from a re-analysis of the deposited data

Results flagged for a closer look

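Several genes around Acod1 had a habit difference, asbestos minus fragments, that was not the same in riebeckite and in tremolite. The difference of the differences, riebeckite minus tremolite, was tested in the same limma fit, adjusted over all genes tested, of which 3.93% were called. Many of these genes were named for a small p in the riebeckite habit comparison, so the test is not independent of how they were picked. Of the receptors and regulators, it was 0.77 for Tlr2, 0.76 for Nfkbia, 0.65 for Cd14 and 0.45 for Nfkb2 on the log2(FPKM + 1) scale. Of the activation genes, it was 1.00 for Gpr84 (0.9956 before rounding), 0.43 for Ccl3, 0.36 for Sod2 and 0.32 for Il1a. Among genes of the antioxidant response it was 0.57 for Hmox1, 0.51 for Sqstm1, 0.42 for Slc7a11 and -0.18 for Gsr. For Hmox1 the habit difference was 0.15 in riebeckite and -0.41 in tremolite, so the larger was in tremolite, with asbestos lower. For Gsr it was -0.13 in riebeckite and 0.05 in tremolite. Among the proteins itaconate acts on it was 0.45 for Lrrk2 and 0.42 for Nfkbiz.

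The adjusted p (limma) lay between 0.000870 for Tlr2 and 0.0329 for Gsr. No difference turned its direction under 25 alternatives. That of Gsr passed in 12 of them. Nfkbiz and Slc7a11 could be tested in 24. That of Lrrk2 was lost without riebeckite asbestos library 1, tremolite asbestos library 3, tremolite fragments library 1 or both riebeckite libraries numbered 2, and that of Cd14 without riebeckite fragments library 2 or tremolite asbestos library 3. Those of Ccl3, Il1a and Slc7a11 were lost without both riebeckite libraries numbered 2. For Acod1 the same quantity is 0.93, given without a test.

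A few genes lay on opposite sides of untreated cells in every library of each group compared. Slc25a10 was above the untreated range with riebeckite asbestos and below it with tremolite asbestos, which differed by 0.62 (called). Rab32, a small GTPase that brings itaconate to bacterial vacuoles, was below the untreated range with riebeckite and above it with tremolite. The riebeckite minus tremolite difference of Rab32 was -0.24 between asbestos groups and -0.35 between fragment groups, both called. Ccl3 was above the untreated range with riebeckite asbestos and below it with riebeckite fragments, which differed by 0.51 (called).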

How the results depend on the processing

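The mineral difference of Acod1 between asbestos groups passed the test in all 25 alternatives, with adjusted p (limma) from 4.68e-07 to 0.000931, the latter with only the groups compared. With a pseudocount of 0.1 the log2 differences of Acod1 from untreated cells were 4.64 with riebeckite asbestos, 2.85 with riebeckite fragments, 3.44 with tremolite asbestos and 2.63 with tremolite fragments, and between habits 1.78 in riebeckite and 0.81 in tremolite. Leaving out each library gave 3.53 to 3.69 for riebeckite asbestos against untreated cells, 1.55 to 1.71 between riebeckite habits, 0.83 to 1.00 (0.998373 before rounding) for the difference between the habit effects, and 0.16 to 0.22 between fragment groups (adjusted p 0.0292 to 0.282, limma). Without both riebeckite libraries numbered 2, a choice made after seeing the data, riebeckite asbestos differed from untreated cells by 3.53. Of the 139 listed genes, 38 were called between riebeckite habits, against 22 without both libraries numbered 2 and 21 with only the groups compared. Between tremolite habits 5 were called after quantile normalization, against 3. Between fragment groups 40 were called, against 26 with only the groups compared, and 26 to 41 when leaving out each library (26 without tremolite fragments library 2 or 3). The replicate block changed neither mineral call of Acod1 (adjusted p 1.76e-06 for asbestos and 0.0534 for fragments, limma). Same-numbered libraries deviated together by r above 0.1 in 4 of 30 pairs (range -0.06 to 0.17). The highest value was between the riebeckite libraries numbered 2. These values cannot settle whether same-numbered libraries were paired. TMM and quantile scaling moved the median of all genes by at most 0.04. Of 2403 other values under alternatives, most of them counts by list, 164 moved by more than 1.5 times and 0 reversed; the cause was not tested. The planned test of transcript shares was not run, since Acod1 has 1 transcript. FPKM hold no depth, so no counting error could be given for the low untreated values.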

Other observations

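Some genes ran opposite to Acod1 over the 15 libraries. They were looked for after the data were seen and are given as a description, with no test. In all, 133 genes had r below -0.9. The most opposite were Sh2d1b1 (r = -0.972), an adaptor of SLAM-family receptors, Slc40a1 (-0.971), the iron exporter ferroportin, Cyp4a12a (-0.967) and Cyp4a12b (-0.961), fatty acid hydroxylases with closely related sequences between which reads may be shared, and Ids (-0.961), a lysosomal sulfatase.

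Cyp4a12a measured 31.5, 30.6 and 31.8 FPKM with riebeckite asbestos and 45.4, 47.0 and 44.8 FPKM with riebeckite fragments. It measured 42.0, 40.0 and 43.0 FPKM with tremolite asbestos and 42.2, 46.5 and 45.8 FPKM with tremolite fragments, against 57.1, 55.7 and 62.4 FPKM in untreated cells. The riebeckite asbestos libraries were the lowest and the untreated libraries the highest, as the reverse of Acod1. Slc40a1 measured 0.976, 0.958 and 0.999 FPKM with riebeckite asbestos and 1.51, 1.51 and 1.76 FPKM with riebeckite fragments. It measured 1.36, 1.15 and 1.49 FPKM with tremolite asbestos and 1.51, 1.45 and 1.43 FPKM with tremolite fragments, against 2.56, 2.59 and 2.72 FPKM in untreated cells. Its tremolite groups overlapped.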
